A study of Mus musculus with 6 samples.

Results

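The TNF superfamily of ligands and the TNF receptor superfamily were followed in RUNX1-ETO9a (RE9a) mouse AML cells with and without *Phf6*. Members were the protein-coding genes of the deposited table whose symbol begins with Tnfsf or Tnfrsf and a digit, together with *Tnf*, *Lta*, *Ltb*, *Ltbr*, *Fas*, *Fasl*, *Cd27*, *Cd70*, *Cd40*, *Cd40lg*, *Ngfr* and *Eda2r*. The rule gave 43 members of the 54532 genes in the table, of which 22046 are protein-coding, and used no measured value. There were 17 ligands and 26 receptors.

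RNA-sequencing was done on GFP+ leukemia cells sorted from the bone marrow of mice, with 3 *WT Phf6,RE9a* libraries (replicates 1, 2 and 3) and 3 *VC Phf6,RE9a* libraries (replicates 11, 12 and 13). Both groups carry the floxed *Phf6* allele in male cells (*Phf6 fl/y*), and *VC* mice also carry *Vav1-Cre*, a Cre driven by a promoter active in blood cells, so the groups differ in Cre as well as in *Phf6*. Fetal liver cells (Lin-) were transduced with an RE9a-GFP virus and passed serially through male recipients. The male mice were 6 to 8 weeks old. RE9a is a truncated form of the RUNX1-ETO fusion that drives leukemia in mice. The recipients keep their own unlabelled blood cells, which the GFP sort is meant to remove. The passage and whether the 3 libraries of a group are different leukemias were not given, so the p-values measure the spread between these libraries, which may be technical. The counts summed to 16817994, 15675358 and 16691325 in the libraries of *WT Phf6,RE9a* and 16315278, 16095424 and 16039999 in *VC Phf6,RE9a* cells. Levels are TMM-scaled CPM, and levels of different single genes are compared only as FPKM, which also divide by gene length.

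The deleted gene was checked first. *Phf6* (chrX:52912266-52956943, GRCm38) was read 1044, 827 and 1142 times in the *WT Phf6,RE9a* libraries and 388, 314 and 331 times in the *VC Phf6,RE9a* libraries. Its level fell from 64.3 ± 7.15 to 20.3 ± 2.37 CPM (SD, n = 3). In edgeR the log2 fold change (log2FC) was -1.66, with a standard error (SE) of 0.13 and an adjusted p of 9.32e-05. The groups did not overlap, and gene-level counts leave the exons behind the remaining reads unknown.

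TNF superfamily ligands are trimers made on the cell surface, and many are then cut free. Their receptors fall into classes. Death domain receptors recruit adaptors that can start apoptosis or necroptosis, TRAF-binding receptors signal mainly to NF-κB and JNK, and decoy receptors bind ligand without a working death domain. In blood, the superfamily is best known for inflammation, for the survival of B cells and for costimulation of T cells, and *Tnf* is itself a target of NF-κB.

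The members moved in both directions. The ligands *Tnf*, *Lta*, *Tnfsf9* and *Tnfsf14* and the receptors *Tnfrsf9*, *Tnfrsf10b*, *Tnfrsf13b*, *Tnfrsf18*, *Tnfrsf21* and *Eda2r* fell in *VC Phf6,RE9a* cells, and *Tnf* went from rank 2 of the members by mean FPKM to rank 17. The ligands *Tnfsf10* and *Tnfsf13b* and the receptors *Tnfrsf13c*, *Ltbr*, *Tnfrsf1a*, *Tnfrsf25*, *Tnfrsf1b*, *Tnfrsf14*, *Tnfrsf22* and *Tnfrsf4* rose, and *Tnfrsf14* became the highest member by mean FPKM. In bulk RNA, fewer cells of a type and less RNA per cell cannot be told apart. Of the 43 members, 27 had enough counts to be tested. At an adjusted p under 0.05 in edgeR, 10 fell, 10 rose and 7 did not pass the threshold. In the whole table, 22.7% of the 14169 tested genes fell and 21.5% rose, and the share of tested members was 37.0% in each direction. Among the tested members, the libraries of the 2 groups did not overlap for 9 that were lower and 10 that were higher. The shares of all tested genes were 28.4% and 28.9%. The median log2FC of the tested members was -0.05, and that of all tested genes was 0.01. The filter works on the level, and 7 of the 27 (*Lta*, *Tnfsf13b*, *Tnfrsf10b*, *Ltbr*, *Tnfrsf9*, *Tnfrsf13c* and *Eda2r*) reached it in every library of 1 group only, so that they passed through the group where they were high. *Tnfsf13* reached it in every library of neither group. Of the 19 that reached it in both groups, 6 fell (31.6%), 7 rose (36.8%) and 6 did not pass, beside 22.8% and 20.2% of the 12012 genes in the whole table that reached it in both.

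**Figure D1:**
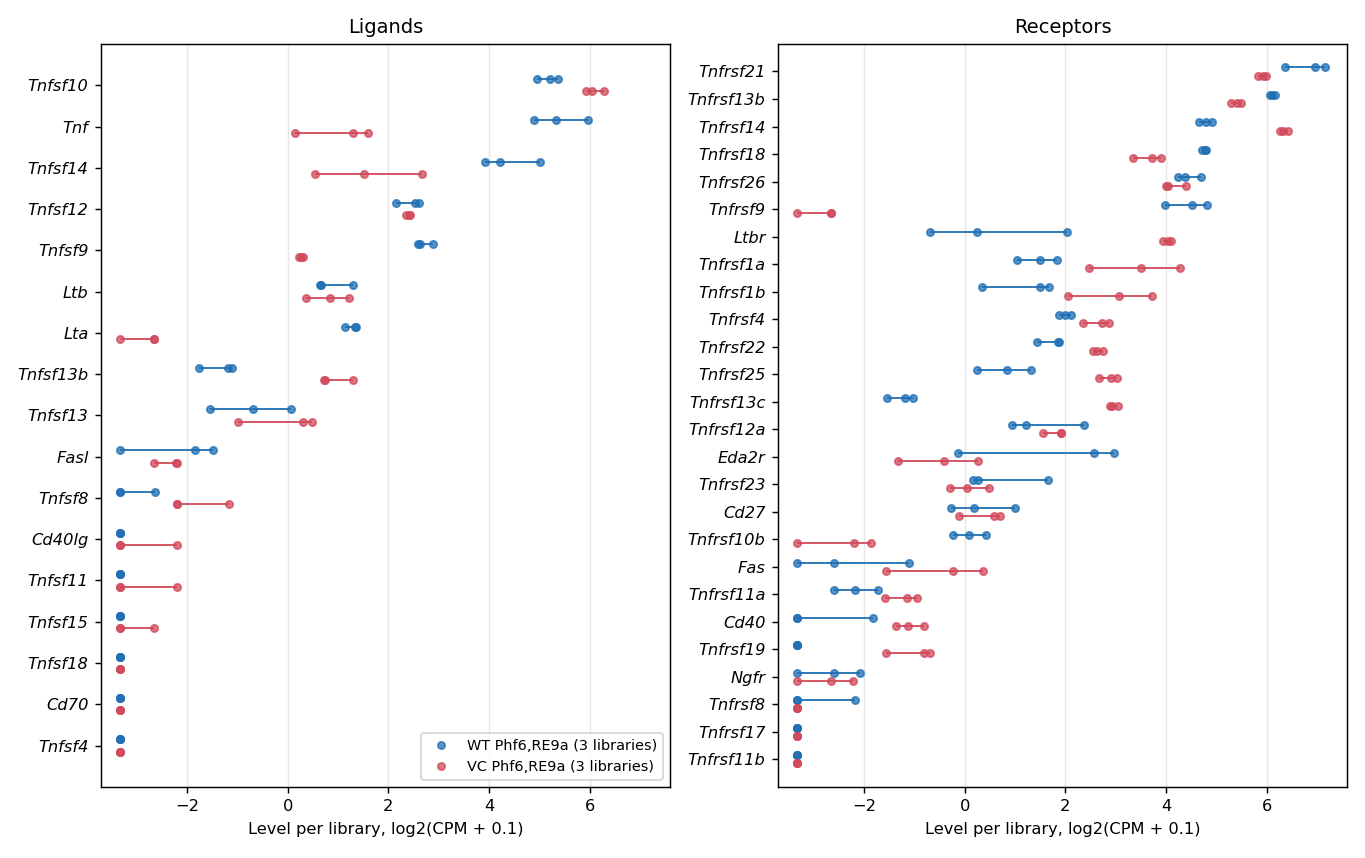
Level of each of the 43 members in each library, as log2(CPM + 0.1), for 17 ligands (left) and 26 receptors (right). Each point is 1 library and each line joins the lowest and highest of the 3 libraries of a group. *Tnf*, *Lta* and *Tnfrsf9* lie far lower in *VC Phf6,RE9a* cells, *Tnfrsf13c* and *Ltbr* far higher, and points at the left edge are libraries with 0 counts.

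Among the 17 ligands, 9 were tested, 4 fell and 2 rose. *Tnf*, the founding inflammatory cytokine of the family, was at 62.7, 29.4 and 40.1 CPM in *WT Phf6,RE9a* cells and at 2.36, 2.91 and 1.01 CPM in *VC Phf6,RE9a* cells. Its lowest *WT Phf6,RE9a* library was thus far above its highest *VC Phf6,RE9a* library. Mean levels were 44.1 ± 17.0 and 2.09 ± 0.979 CPM (SD, n = 3), with log2FC -4.39 (SE 0.41, adjusted p = 0.000198, edgeR). *Lta*, which encodes lymphotoxin alpha and shares the receptors of TNF, lies beside it. *Lta* was read 38, 31 and 40 times in *WT Phf6,RE9a* and 1, 1 and 0 times in *VC Phf6,RE9a* libraries. By summed counts per library size it was 59.5 times lower (95% exact binomial interval 16.1 to 497, counting error only; adjusted p = 0.000210, edgeR). *Ltb*, the lymphotoxin beta chain that pairs with lymphotoxin alpha to bind *Ltbr*, is the third gene of this locus. It was at 1.49, 2.37 and 1.45 CPM in *WT Phf6,RE9a* and at 2.24, 1.69 and 1.19 CPM in *VC Phf6,RE9a* cells, the groups overlapped, and its log2FC was -0.05 (SE 0.36, adjusted p = 0.924).

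The 3 genes lie next to each other on chromosome 17, with 3061 bases between *Ltb* (chr17:35194439-35196320) and *Tnf* (chr17:35199381-35202007) and 1158 bases between *Tnf* and *Lta* (chr17:35203165-35205351). The 250 bases before the starts of *Tnf* and *Lta*, which fell together, come from RefSeq (GRCm38.p6, minus strand, chr17:35202008-35202257 and chr17:35205352-35205601), with the TATA letters TATAAA in capitals.
Tnf: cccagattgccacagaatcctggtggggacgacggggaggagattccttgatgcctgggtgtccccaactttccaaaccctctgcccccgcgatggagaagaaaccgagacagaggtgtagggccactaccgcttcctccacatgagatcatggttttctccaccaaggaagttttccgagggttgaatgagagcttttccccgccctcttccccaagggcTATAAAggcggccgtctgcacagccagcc
Lta: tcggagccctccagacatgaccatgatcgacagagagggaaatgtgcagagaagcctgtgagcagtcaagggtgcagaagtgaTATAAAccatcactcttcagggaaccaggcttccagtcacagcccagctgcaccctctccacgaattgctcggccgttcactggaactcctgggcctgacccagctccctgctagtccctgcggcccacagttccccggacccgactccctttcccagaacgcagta
The match began 29 bases before the start of *Tnf* and 167 bases before that of *Lta*. RefSeq promoters were matched for 33 of the 43 members, with 37 starts. On either strand of the 250 bases, 12.4% of 32851 mouse promoters held TATAAA, and 7 members did. The NF-κB consensus, of 10 bases, was held by 3.90% of promoters and by 3 members (*Ltb*, *Tnfrsf8* and *Tnfrsf9*), the AP-1 letters TGACTCA by 4.46% and 6 members, and the RUNX letters TGTGGT by 14.0% and 3 members. Matches were counted on both strands, where matches of 1 motif can overlap each other. A match is a description of the sequence, and a missing match says only that the letters are not in this window.

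Of the other ligands, *Tnfsf9*, the ligand of the costimulatory receptor CD137, was at 6.10, 7.26 and 5.93 CPM in *WT Phf6,RE9a* and at 1.06, 1.11 and 1.13 CPM in *VC Phf6,RE9a* cells. Every *VC Phf6,RE9a* library was lower, with a log2FC of -2.54 (SE 0.24, adjusted p = 0.000214). It shares 14.9% of its exonic bases with *Gm11110* on the opposite strand, and the strandedness of the counts is not given in the sources used here. *Gm11110* had 72, 142 and 70 counts in *WT Phf6,RE9a* and 26, 26 and 31 in *VC Phf6,RE9a* cells, so reads of the 2 genes cannot be told apart in the shared bases. *Tnfsf14*, known as LIGHT, binds both *Ltbr* and *Tnfrsf14*. It was at 15.1, 32.0 and 18.4 CPM in *WT Phf6,RE9a* and at 2.77, 6.29 and 1.37 CPM in *VC Phf6,RE9a* cells. The groups did not overlap, and the log2FC was -2.64 (SE 0.53, adjusted p = 0.00551). With 1 library left out it ran from -3.39 (without *VC Phf6,RE9a* replicate 12) to -2.26 (without *VC Phf6,RE9a* replicate 13).

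*Tnfsf10*, the death ligand TRAIL, was at 31.0, 36.9 and 41.2 CPM in *WT Phf6,RE9a* and at 66.2, 60.4 and 78.2 CPM in *VC Phf6,RE9a* cells (log2FC 0.91, SE 0.14, adjusted p = 0.00172). *Tnfsf13b*, the B-cell survival factor BAFF, was low in all libraries, at 0.195, 0.339 and 0.363 CPM in *WT Phf6,RE9a* and 2.36, 1.57 and 1.54 CPM in *VC Phf6,RE9a* cells (log2FC 2.58, SE 0.40, adjusted p = 0.00181). Neither gene overlapped between the groups. *Tnfsf12*, which encodes TWEAK, was at 4.35, 6.04 and 5.69 CPM in *WT Phf6,RE9a* and at 5.31, 5.19 and 4.99 CPM in *VC Phf6,RE9a* cells, with a log2FC of -0.05 (SE 0.22). *Tnfsf13*, which encodes APRIL, was at 0.519, 0.950 and 0.242 CPM in *WT Phf6,RE9a* and at 1.30, 0.408 and 1.13 CPM in *VC Phf6,RE9a* cells (log2FC 0.74, SE 0.60). Neither passed the threshold, and 48.3% and 60.0% of their exonic bases also belong to the read-through gene *Tnfsfm13*, so their counts are uncertain. *Tnfsfm13* itself had 9, 8 and 7 counts in *WT Phf6,RE9a* and 20, 28 and 17 in *VC Phf6,RE9a* cells and rose (log2FC 1.29, SE 0.36, adjusted p = 0.0222).

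The 8 other ligands had at most 6 counts in any library and were not tested. *Tnfsf4*, *Tnfsf18* and *Cd70* had 0 counts in every library, and *Fasl*, *Cd40lg*, *Tnfsf11* and *Tnfsf15* had at most 4, 2, 2 and 1. *Tnfsf8*, the CD30 ligand, had 1 count over the *WT Phf6,RE9a* libraries and 10 over the *VC Phf6,RE9a* libraries. The ratio was 9.16 (95% exact binomial interval 1.30 to 398, counting error only).

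**Figure D2:**
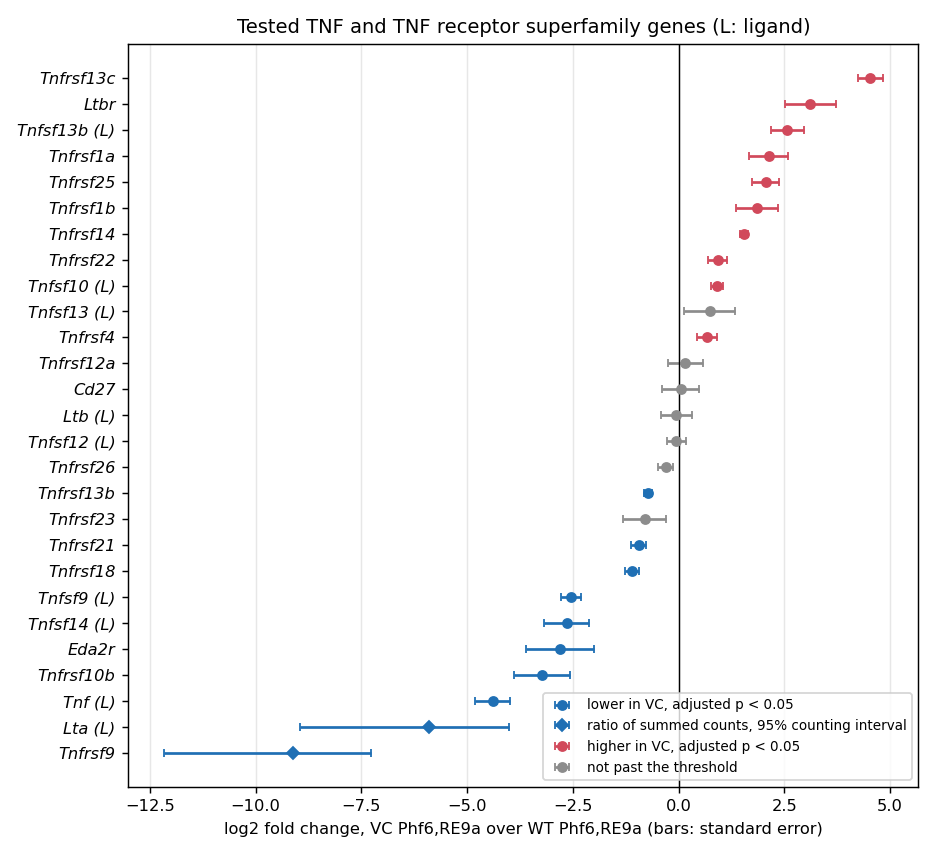
Log2 fold change of the 27 tested members, *VC Phf6,RE9a* over *WT Phf6,RE9a*, with the standard error from edgeR as bars. For *Lta* and *Tnfrsf9*, which had 2 counts over the *VC Phf6,RE9a* libraries, diamonds show the ratio of summed counts with its 95% counting interval. Changes run from *Tnfrsf9*, 556 times lower, to *Tnfrsf13c*, with a log2 fold change of 4.53.

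Among the 6 death domain receptors, 4 were tested, 2 rose and 2 fell. *Tnfrsf1a*, the main signaling receptor of TNF, was at 2.73, 1.97 and 3.45 CPM in *WT Phf6,RE9a* and at 19.2, 11.2 and 5.47 CPM in *VC Phf6,RE9a* cells. All *VC Phf6,RE9a* libraries were higher but far apart from each other, and the log2FC was 2.13 (SE 0.46, adjusted p = 0.00787). *Tnfrsf25*, known as DR3, is the receptor of *Tnfsf15*. It was at 2.40, 1.09 and 1.69 CPM in *WT Phf6,RE9a* and at 7.44, 6.23 and 8.02 CPM in *VC Phf6,RE9a* cells, without overlap (log2FC 2.06, SE 0.32, adjusted p = 0.00182). *Tnfrsf21*, known as DR6, had the highest mean FPKM of the members in *WT Phf6,RE9a* cells, at 27.97 ± 7.31 beside 26.8 ± 10.45 for *Tnf* (SD, n = 3). In *WT Phf6,RE9a* replicate 1 both *Tnf* and *Tnfrsf13b* had a higher FPKM. It fell from 81.7, 141 and 124 CPM to 60.9, 62.9 and 56.5 CPM (log2FC -0.95, SE 0.19, adjusted p = 0.00518), and no library overlapped. *Tnfrsf10b*, the mouse death receptor of TRAIL, was read 19, 11 and 16 times in *WT Phf6,RE9a* and 2, 3 and 0 times in *VC Phf6,RE9a* libraries (log2FC -3.23, SE 0.66, adjusted p = 0.00603). Its log2FC was -3.89 without *VC Phf6,RE9a* replicate 12.

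*Fas*, the receptor of Fas ligand, was below the filter with 1, 0 and 6 reads in *WT Phf6,RE9a* and 20, 13 and 4 reads in *VC Phf6,RE9a* libraries, and the groups overlapped. It passed the filter when any of 4 libraries was left out, and the adjusted p in edgeR was 0.0328 without *WT Phf6,RE9a* replicate 3, 0.215 and 0.178 without *WT Phf6,RE9a* replicates 1 and 2, and 0.0559 without *VC Phf6,RE9a* replicate 13. *Ngfr* had at most 2 counts in a library.

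Of the 3 decoy receptors, *Tnfrsf22*, a mouse decoy for TRAIL, was at 2.60, 3.53 and 3.57 CPM in *WT Phf6,RE9a* and at 5.79, 6.58 and 6.06 CPM in *VC Phf6,RE9a* cells, without overlap (log2FC 0.92, SE 0.23, adjusted p = 0.0143). Without *VC Phf6,RE9a* replicate 12 the adjusted p was 0.0547. *Tnfrsf23*, the neighbouring decoy, was at 1.10, 3.05 and 1.03 CPM in *WT Phf6,RE9a* and at 1.30, 0.932 and 0.713 CPM in *VC Phf6,RE9a* cells and did not pass the threshold (log2FC -0.80, SE 0.51, adjusted p = 0.237), and its log2FC was -0.13 without *WT Phf6,RE9a* replicate 2. *Tnfrsf11b*, which encodes osteoprotegerin, had 0 counts in every library. *Tnfrsf26*, the third receptor of the *Tnfrsf22* and *Tnfrsf23* cluster on chromosome 7, was at 18.8, 25.8 and 20.7 CPM in *WT Phf6,RE9a* and at 21.1, 15.8 and 16.2 CPM in *VC Phf6,RE9a* cells (log2FC -0.30, SE 0.18, adjusted p = 0.207). Genes of such a cluster resemble each other, and reads shared between them could have been split.

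Of the 16 TRAF-binding receptors, 11 were tested, 4 fell and 5 rose. *Tnfrsf9*, the costimulatory receptor CD137 (chr4:150914562-150946102), was read 350, 411 and 258 times in the *WT Phf6,RE9a* libraries and 1, 1 and 0 times in the *VC Phf6,RE9a* libraries. It was the member with the largest decrease, 556 times lower by summed counts (95% exact binomial interval 154 to 4598, counting error only; adjusted p = 2.8e-05, edgeR). By FPKM it went from rank 7 to rank 36 of the 43 members. RefSeq gives 2 starts for *Tnfrsf9*, and the 250 bases before the downstream one (chr4:150927749-150927998, plus strand) held overlapping matches to the NF-κB consensus, shown in capitals with the bases around them.
Tnfrsf9: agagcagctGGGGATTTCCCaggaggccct
An AP-1 match lay 15 bases before the same start, and none of the 4 motifs was in the 250 bases before the upstream start. *Tnfrsf18*, known as GITR, fell from 27.3, 27.7 and 26.3 CPM to 14.8, 10.1 and 13.1 CPM (log2FC -1.10, SE 0.16, adjusted p = 0.00139). The antisense gene *Gm16008* overlaps 27.2% of the exonic bases of *Tnfrsf18*, where reads of the 2 genes cannot be told apart. *Gm16008* had 35, 70 and 30 counts in *WT Phf6,RE9a* and 22, 23 and 15 in *VC Phf6,RE9a* cells. *Tnfrsf13b*, the BAFF and APRIL receptor TACI, fell from 66.9, 68.9 and 71.7 CPM to 39.0, 42.1 and 44.5 CPM (log2FC -0.72, SE 0.09, adjusted p = 0.000572). Neither *Tnfrsf18* nor *Tnfrsf13b* overlapped between the groups. *Eda2r*, a receptor of ectodysplasin A2, was at 7.73, 0.814 and 5.87 CPM in *WT Phf6,RE9a* and at 0.649, 1.11 and 0.297 CPM in *VC Phf6,RE9a* cells. Its groups overlapped through *WT Phf6,RE9a* replicate 2, and the decrease (log2FC -2.80, SE 0.80, adjusted p = 0.0245) no longer passed without *WT Phf6,RE9a* replicate 1 or 3 or *VC Phf6,RE9a* replicate 11 or 13, with adjusted p between 0.0571 and 0.0764 in edgeR.

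*Tnfrsf13c*, the BAFF receptor that carries survival signals in B cells, showed the largest increase among the fitted members. It was at 0.390, 0.339 and 0.242 CPM in *WT Phf6,RE9a* and at 8.15, 7.46 and 7.25 CPM in *VC Phf6,RE9a* cells (log2FC 4.53, SE 0.29, adjusted p = 4.9e-05). Its promoter (chr15:82224381-82224630, minus strand, GRCm38.p6, RefSeq) holds a match to the RUNX letters, the DNA motif of the RUNX1 part of RE9a. These letters were in 14.0% of mouse promoters, and also before a start of *Tnfrsf25*, which rose, and of *Tnfsf13*, which did not pass. Both groups carry RE9a, and a link of the match to the change was not tested. The match is in capitals, on the opposite strand and 100 bases before the start.
Tnfrsf13c: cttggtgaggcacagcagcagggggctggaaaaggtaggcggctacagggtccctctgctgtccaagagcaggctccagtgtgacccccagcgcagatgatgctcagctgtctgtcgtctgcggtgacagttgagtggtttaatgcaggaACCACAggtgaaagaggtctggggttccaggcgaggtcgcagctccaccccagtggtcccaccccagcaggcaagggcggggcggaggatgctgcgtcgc
*Ltbr*, the lymphotoxin beta receptor, was at 0.519, 4.003 and 1.09 CPM in *WT Phf6,RE9a* and at 17.1, 15.1 and 16.2 CPM in *VC Phf6,RE9a* cells. The *VC Phf6,RE9a* libraries were close together and *WT Phf6,RE9a* replicate 2 stood above the other two. The log2FC was 3.12 (SE 0.60, adjusted p = 0.00449). It was 4.30 without *WT Phf6,RE9a* replicate 2 and 2.67 without *WT Phf6,RE9a* replicate 1. *Tnfrsf14*, known as HVEM, rose from 27.5, 25.03 and 29.96 CPM to 77.0, 79.9 and 85.4 CPM (log2FC 1.55, SE 0.10, adjusted p = 4.9e-05) and had the highest FPKM of the members in *VC Phf6,RE9a* cells. *Tnfrsf1b*, the second TNF receptor, was at 1.17, 2.71 and 3.09 CPM in *WT Phf6,RE9a* and at 12.99, 8.27 and 4.04 CPM in *VC Phf6,RE9a* cells. It rose without overlap (log2FC 1.86, SE 0.50, adjusted p = 0.0194), but its adjusted p became 0.0523 when *WT Phf6,RE9a* replicate 1 was left out and 0.0688 when *VC Phf6,RE9a* replicate 11 was. *Tnfrsf4*, known as OX40, was at 3.57, 3.87 and 4.24 CPM in *WT Phf6,RE9a* and at 6.55, 5.01 and 7.19 CPM in *VC Phf6,RE9a* cells. Its call was close to the threshold (log2FC 0.68, SE 0.23, adjusted p = 0.0466) and was lost without *WT Phf6,RE9a* replicate 1, 2 or 3 or *VC Phf6,RE9a* replicate 11 or 13, with adjusted p between 0.0648 and 0.151.

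*Cd27*, a costimulatory receptor, was at 1.04, 1.90 and 0.726 CPM in *WT Phf6,RE9a* and at 1.54, 1.40 and 0.832 CPM in *VC Phf6,RE9a* cells. *Tnfrsf12a*, the TWEAK receptor, was at 5.06, 2.24 and 1.82 CPM in *WT Phf6,RE9a* and at 3.66, 2.85 and 3.68 CPM in *VC Phf6,RE9a* cells. Both overlapped and did not pass the threshold (log2FC values 0.05 and 0.16, standard errors 0.44 and 0.41). The 5 other TRAF-binding receptors had at most 9 counts in any library. *Tnfrsf19* had no read in *WT Phf6,RE9a* libraries and 8, 9 and 4 reads in *VC Phf6,RE9a* libraries, at least 6.41-fold higher against a floor of 3 counts over the *WT Phf6,RE9a* group. *Cd40* had 3 counts over the *WT Phf6,RE9a* and 19 over the *VC Phf6,RE9a* libraries. The ratio was 5.80 (95% exact binomial interval 1.71 to 30.6, counting error only). *Tnfrsf11a* (RANK) and *Tnfrsf8* (CD30) had at most 7 and 2 counts, and *Tnfrsf17* (BCMA) had 0 in every library.

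Ligands and receptors known to bind each other were then set side by side, over 27 pairs of members. Both genes were tested in 15 pairs, 1 gene in 7 and neither in 5. In 6 of the 15 pairs the ligand fell and the receptor rose, namely *Tnf* and *Lta* with *Tnfrsf1a* and *Tnfrsf1b*, and *Tnfsf14* with *Ltbr* and *Tnfrsf14*. The pairs share genes, so they are not 6 separate results. *Lta* and *Ltbr*, and in the pairs below *Tnfrsf9*, *Tnfrsf10b*, *Tnfsf13b* and *Tnfrsf13c*, passed the count filter only through the group where they were high. The pair counts are therefore a description, with no share over other genes beside them. By FPKM, *Tnf* went from 26.8 ± 10.45 to 1.26 ± 0.596 while *Tnfrsf1a* went from 1.04 ± 0.282 to 4.56 ± 2.64 (SD, n = 3), so that the ligand had the higher level in *WT Phf6,RE9a* and the receptor in *VC Phf6,RE9a* cells. *Tnfsf14* went from 11.7 ± 4.79 to 1.86 ± 1.37 FPKM, while *Tnfrsf14* went from 19.0 ± 1.67 to 55.4 ± 2.75 FPKM. Ligand and receptor both fell in 1 pair, *Tnfsf9* with *Tnfrsf9*. Both rose in 2 pairs, *Tnfsf10* with *Tnfrsf22* and *Tnfsf13b* with *Tnfrsf13c*. In 2 pairs the ligand rose and the receptor fell, *Tnfsf10* with *Tnfrsf10b* and *Tnfsf13b* with *Tnfrsf13b*. For TRAIL, the ligand and 1 decoy were thus higher and the death receptor lower. For BAFF, the receptors moved in opposite directions, and *Tnfrsf13b* stayed above *Tnfrsf13c* by FPKM in *VC Phf6,RE9a* cells (14.6 ± 0.921 against 3.67 ± 0.231; SD, n = 3). Summed over the ligands, FPKM were 63.2, 55.2 and 53.1 in *WT Phf6,RE9a* and 22.4, 22.6 and 21.8 in *VC Phf6,RE9a* libraries. In CPM the difference was smaller, with ligand sums of 124, 117 and 116 in *WT Phf6,RE9a* and 84.1, 80.1 and 90.8 in *VC Phf6,RE9a* libraries. Summed over the receptors, FPKM were 106, 122 and 115 in *WT Phf6,RE9a* and 132, 124 and 127 in *VC Phf6,RE9a* libraries. *Tnfrsf14* alone gave 19.1, 17.3 and 20.6 of these in *WT Phf6,RE9a* and 52.8, 55.2 and 58.3 in *VC Phf6,RE9a* libraries. The rest of the receptor FPKM sum was lower in every *VC Phf6,RE9a* library than in any *WT Phf6,RE9a* library. In CPM the receptor sums were 275, 343 and 317 in *WT Phf6,RE9a* and 300, 279 and 277 in *VC Phf6,RE9a* libraries, and the groups overlapped.

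**Figure D3:**
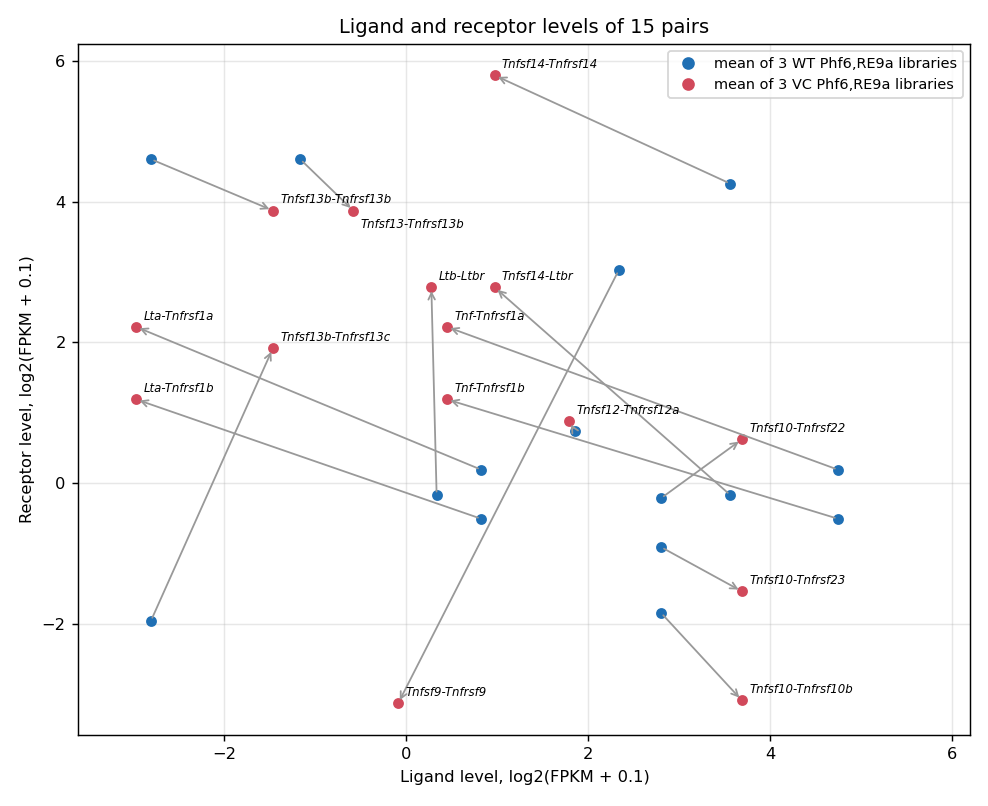
Mean FPKM, as log2(FPKM + 0.1), of the ligand (horizontal axis) and receptor (vertical axis) of the 15 pairs in which both genes were tested. Each arrow runs from the mean of the 3 *WT Phf6,RE9a* libraries to the mean of the 3 *VC Phf6,RE9a* libraries. Arrows that point up and to the left are pairs in which the ligand was lower and the receptor higher, as for *Tnf* with *Tnfrsf1a*.

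Members that lie close together in the genome did not always move together. On chromosome 17, *Tnfsf9* and *Tnfsf14* fell and *Cd70* between them had 0 counts. On chromosome 6, *Ltbr* and *Tnfrsf1a* rose, with 35477 bases between them, while their neighbour *Cd27* did not pass. On chromosome 4, *Tnfrsf4* rose and *Tnfrsf18* fell, 9552 bases apart.

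Genes that act downstream of these receptors, or that cut or degrade their ligands, were read from a list of 38 genes, which were all tested. Of these, 18 fell, 4 rose and 16 did not pass the threshold. These are 47.4% lower and 10.53% higher, beside 22.7% and 21.5% of all tested genes, and the median log2FC was -0.31, beside 0.01 over all tested genes. The list was chosen with earlier results of these data known, so these shares only describe it. The largest decreases were in *Tnfaip3* (log2FC -2.03, SE 0.35, adjusted p = 0.00302), which encodes the ubiquitin editing enzyme A20, *Zfp36* (-1.84, SE 0.25, adjusted p = 0.000944) and *Furin* (-1.55, SE 0.29, adjusted p = 0.00408). *Zfp36* encodes tristetraprolin, which binds and destabilises *Tnf* mRNA, and FURIN is a protease that matures several ligands of the family, BAFF, APRIL and TWEAK among them. *Zfp36* was at 3227, 3237 and 2161 CPM in *WT Phf6,RE9a* and at 1053, 763 and 590 CPM in *VC Phf6,RE9a* cells, and *Tnfaip3* at 3470, 2879 and 1603 CPM and at 951, 489 and 510 CPM. *Zfp36*, *Tnfaip3* and *Zfp36l2* had the highest FPKM of the list. The 4 genes of *Tnf* mRNA decay, *Zfp36*, *Zfp36l1*, *Zfp36l2* and *Zc3h12a*, all fell with *Tnf* itself, with log2FC values from -1.18 to -1.84. Of the 5 shedding genes, 1 fell, 1 rose and 3 did not pass. *Adam17*, the main enzyme that releases TNF, went from 77.0 ± 15.6 to 76.7 ± 1.67 CPM (SD, n = 3; log2FC -0.01, SE 0.14).

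The genes of the list that rose did so by less. They were *Tab1*, a partner of the kinase TAK1 (log2FC 0.80, SE 0.10, adjusted p = 0.000774), *Otulin*, which removes linear ubiquitin (0.55, SE 0.10, adjusted p = 0.00385), the shedding enzyme *Adam10* (0.43, SE 0.09, adjusted p = 0.00748) and *Sharpin*, a subunit of the linear ubiquitin ligase (0.38, SE 0.08, adjusted p = 0.00754). Other genes of the same groups fell, namely *Rnf31*, the catalytic subunit of that ligase, with a log2FC of -0.38, *Tnip1*, which binds A20, with -0.30, *Map3k7*, which encodes TAK1, with -0.41, its partner *Tab2* with -0.54 and the IκB kinase *Ikbkb* with -0.58. Among the 7 TRAF and cIAP genes, 3 fell (*Traf1*, *Birc3* and *Traf6*) and 4 did not pass. Among the 5 death domain adaptor and kinase genes, *Ripk3*, a kinase of necroptosis, fell from 105.9 ± 10.1 to 50.9 ± 0.340 CPM (SD, n = 3; log2FC -1.06, SE 0.09, adjusted p = 0.000150), *Ripk1* fell with a log2FC of -0.35, and 3 did not pass. Both *Casp8* and its inhibitor *Cflar* fell, with log2FC values of -0.34 and -0.35. Some of the smaller decreases lost their call with 1 library left out (edgeR). The adjusted p of *Cflar* was then 0.0647 to 0.125 in 5 of 6 fits and that of *Traf6* 0.0615 to 0.106 in 4 of 6, and *Casp8* (0.0587 and 0.0784 without *VC Phf6,RE9a* replicates 11 and 12) and *Ripk1* (0.0556 without replicate 12) lost theirs too.

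**Figure D4:**
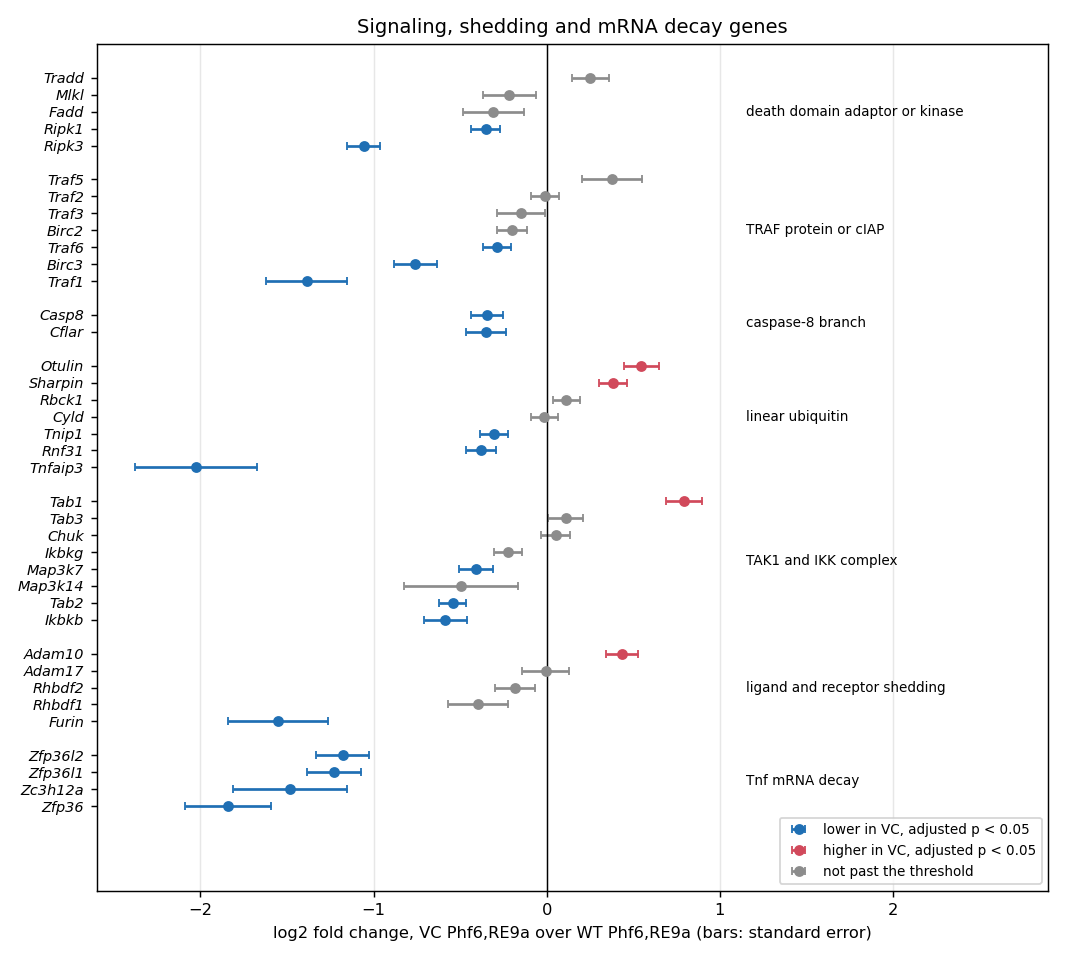
Log2 fold change, *VC Phf6,RE9a* over *WT Phf6,RE9a*, with the standard error from edgeR, of 38 genes of signaling, shedding and mRNA decay, grouped by role. The 4 genes of *Tnf* mRNA decay are all lower, and the 4 genes that rose reach at most a log2 fold change of 0.80.

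Marker genes of cell types moved with several of these results. Of 12 markers of myeloid leukemia cells, 8 rose and 3 fell, and their summed level went from 3116, 3658 and 2293 CPM to 777, 793 and 479 CPM. *Kit* and *Cd34* made up most of the sum in *WT Phf6,RE9a* cells, and the 10 other markers summed to 225, 188 and 247 CPM in *WT Phf6,RE9a* and 552, 409 and 221 CPM in *VC Phf6,RE9a* cells. *Kit* is also on the mast cell list. By mean FPKM the most abundant was *Kit* in *WT Phf6,RE9a* and *Elane* in *VC Phf6,RE9a* cells. All 12 had reads in every library. All 9 mature neutrophil markers rose, with sums of 181, 144 and 444 CPM in *WT Phf6,RE9a* and 3486, 2223 and 912 CPM in *VC Phf6,RE9a* cells, and *S100a9* had the highest FPKM in both groups. Among the *VC Phf6,RE9a* libraries this sum was highest in replicate 11 and lowest in replicate 13, as were *Tnfrsf1a*, *Tnfrsf1b*, *Tnfsf13b*, *Tnfrsf13c* and the untested *Fas*, though *Tnfrsf13c* ranged only from 7.25 to 8.15 CPM. The 6 other members that rose had another order. Among the *WT Phf6,RE9a* libraries the sum was highest in replicate 3, as were *Tnfrsf1a*, *Tnfrsf1b*, *Tnfsf13b* and *Fas*, while *Tnfrsf13c* was lowest there.

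B-cell and plasma cell markers were low but rose in all 5 that were tested of 6. Their sums were 3.38, 4.41 and 10.05 CPM in *WT Phf6,RE9a* and 69.6, 69.5 and 25.7 CPM in *VC Phf6,RE9a* cells, and *Ighm* had the highest FPKM in both groups. *Tnfrsf13c* and *Tnfsf13b* rose too. *Tnfrsf13c* was at 8.15, 7.46 and 7.25 CPM in the *VC Phf6,RE9a* libraries, without the large drop of the B-cell sum in replicate 13. In *WT Phf6,RE9a* cells it was lowest in replicate 3, where the sum was highest. *Tnfsf13b* had the order of the sum in both groups. Of 10 mast cell and basophil markers 9 fell, with sums of 27294, 30030 and 19089 CPM in *WT Phf6,RE9a* and 4972, 5044 and 5424 CPM in *VC Phf6,RE9a* cells. By FPKM the most abundant was *Cpa3* in *WT Phf6,RE9a* and *Hdc* in *VC Phf6,RE9a* cells. Among the *VC Phf6,RE9a* libraries the mast cell and basophil sum was highest in replicate 13. Of the members that fell, *Tnfsf9* and *Tnfrsf13b* were also highest there. *Tnf*, *Lta*, *Tnfsf14*, *Tnfrsf9*, *Tnfrsf10b*, *Tnfrsf21* and *Eda2r* were lowest there, and *Tnfrsf18* lay between. The 3 *VC Phf6,RE9a* sums were close together, and *Lta*, *Tnfrsf9* and *Tnfrsf10b* had at most 3 counts in each of these libraries. Among the *WT Phf6,RE9a* libraries the sum was highest in replicate 2 and lowest in replicate 3, as were *Tnfsf9*, *Tnfrsf9* and *Tnfrsf18*. The other members that fell had another order, though *Tnfsf14* and *Tnfrsf21* were also highest in replicate 2. All 8 erythroid markers rose, from sums of 2241, 1465 and 2087 CPM to 5429, 6157 and 5184 CPM, and *Hbb-bs* had the highest FPKM in both groups.

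The CD3 and T-cell receptor genes *Cd3d*, *Cd3e*, *Cd3g*, *Trac* and *Trbc2* were at most 0.354 CPM in a library. *Cd8a* had 1, 7 and 1 counts in *WT Phf6,RE9a* and 24, 16 and 4 in *VC Phf6,RE9a* cells, *Cd28* had 5, 3 and 5 against 25, 10 and 6, and *Cd4* had 8, 2 and 5 against 14, 13 and 6. Only *Cd247*, which fell, and *Lck*, which rose, were tested of 10 markers, with sums of 9.67, 13.8 and 12.7 CPM in *WT Phf6,RE9a* and 17.2, 14.6 and 13.1 CPM in *VC Phf6,RE9a* cells. By FPKM the most abundant was *Cd247* in *WT Phf6,RE9a* and *Lck* in *VC Phf6,RE9a* cells. None of 7 NK-cell markers was tested, and their sums were 0.260, 0.0678 and 0.605 CPM in *WT Phf6,RE9a* and 3.01, 2.33 and 1.25 CPM in *VC Phf6,RE9a* cells, with *Gzma* highest by mean FPKM in both groups. Of 10 macrophage and dendritic cell markers, 9 were tested, 2 rose and 7 did not pass, with sums of 18.0, 25.2 and 19.1 CPM against 43.3, 33.2 and 27.9 CPM, with *C1qa* highest by mean FPKM in both groups. Of 9 stromal and endothelial markers, 4 were tested, 1 fell and 2 rose, with sums of 6.56, 2.71 and 3.51 CPM against 10.7, 19.4 and 7.72 CPM. By mean FPKM *Pdgfrb* led in *WT Phf6,RE9a* and *Tek* in *VC Phf6,RE9a* cells, and *Tek* had 0 counts in *WT Phf6,RE9a* libraries and *Col3a1* had 0 counts in every library. The part of these cell types in the changes of the superfamily members was not tested.

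**Figure D5:**
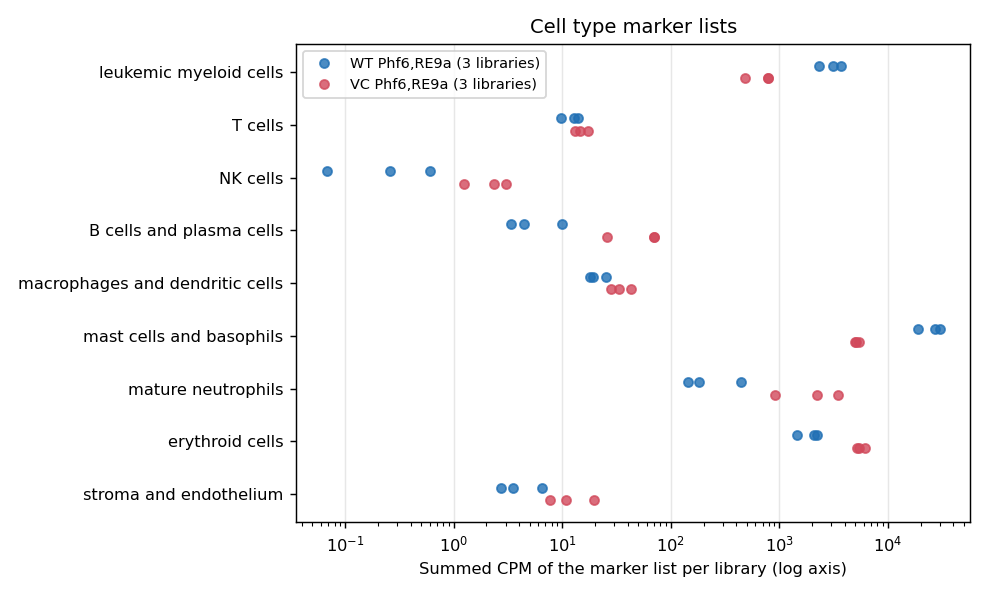
Summed CPM of 9 cell type marker lists in each library, on a log axis. Neutrophil, B-cell, erythroid, NK-cell, macrophage and dendritic cell, and stromal and endothelial sums are higher in all 3 *VC Phf6,RE9a* libraries. Mast cell and basophil sums and myeloid leukemia cell sums are lower in all 3, and T-cell sums of the groups overlap.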

How the data were processed

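RNA-sequencing libraries were made with the Illumina TruSeq RNA kit, and the authors deposited read counts of Ensembl genes as whole numbers, not normalized. The authors also deposited FPKM values, scaled by the deposited gene length and by library size. Their columns of group means, fold changes and p-values were not used. The submitters' processing notes name Bowtie 0.12.0 and mm8, but 98.33% of the 54495 gene identifiers found in GENCODE M21 matched it in start and end, and coordinates are therefore on GRCm38. The counting tool and strandedness are not given in the sources used here.

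Counts were filtered (filterByExpr), scaled by TMM and compared with edgeR 4.0.16 in R 4.3.3 (quasi-likelihood test, Benjamini-Hochberg adjustment over 14169 genes, threshold 0.05, no covariate). The SE of a log2FC was taken as its size over the root of the F statistic. Single-gene exact permutation tests were not used, since 3 against 3 libraries cannot go under a p of 0.1. Where a group had 3 counts or fewer in total, the ratio of summed counts is given in place of a fitted change. Members, lists, pairs and named genes were chosen with earlier results of these data known. Every member is named, with its value in each library where it passed the threshold or a group mean reached 1 CPM, and from the signaling list the 3 largest changes each way and the 3 highest FPKM. *Sharpin* and other genes of that list were named after their values were seen. Alternatives were DESeq2 1.42.0, RLE size factors, other count filters and thresholds, limma 3.58.1 on log2(FPKM + 1) and log2(FPKM + 0.1), and each library left out. Figures used matplotlib 3.10.9. One gene of the B-cell marker list is not reported here and was left out of its counts and sums. The other experiments of the study were not analysed here.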

Additional observations from a re-analysis of the deposited data

How the results depend on the processing

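The members lower were 10 under DESeq2, RLE size factors and no count filter, 9 under both limma fits, and 9 to 10 with a library left out. The number was 6 with at least 10 counts in every library, a filter that removes genes near 0 in 1 group, among them *Lta* and *Tnfrsf9*, and the members higher were then 7. At an adjusted p under 0.01, 9 members were lower and 7 higher, and at 2-fold or more 8 and 7. The members higher were 11 under DESeq2, which added *Tnfrsf19* (adjusted p = 0.0117), 10 without a count filter, which added it too (0.00934, edgeR), and 8 to 10 with a library left out. Of the signaling list, 8 genes were lower and 0 higher at 2-fold or more (18 and 4 without that minimum), and 13 to 18 were lower with a library left out, fewest without *VC Phf6,RE9a* replicate 11 or 12. *Tnfrsf4* lost its call in the fit with no count filter (adjusted p = 0.0861, edgeR), and *Eda2r* with limma on log2(FPKM + 1) and log2(FPKM + 0.1) (0.0771 and 0.0665). *Map3k7* and *Rnf31* lost theirs without *VC Phf6,RE9a* replicate 11 (0.0620 and 0.0516), and *Tnip1* without replicate 12 or 13 (0.0687 and 0.0846). *Traf6* lost its call with no count filter (0.0559) and *Cflar* in both limma fits (0.0570 and 0.0537). Calls of *Cflar*, *Traf6*, *Casp8*, *Ripk1* and of members lost with a library left out are given beside the genes. Log2 fold changes on log2(FPKM + 1) were smaller for genes of low FPKM, as for *Tnfrsf13c* (2.01). Some tested members not past the threshold changed sign with a library left out. Their log2FC ran over -0.19 to 0.030 for *Tnfsf12*, -0.11 to 0.74 for *Tnfrsf12a*, -0.29 to 0.20 for *Ltb* and -0.23 to 0.50 for *Cd27*. *Tnfsf13*, *Tnfrsf23* and *Tnfrsf26* kept their sign in each of these fits. No called member changed sign under the alternatives run. No paired analysis was possible because the groups share no replicate number.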

Other observations

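Genes related to the superfamilies by name or function, but outside the rule that chose the members, were read after the values were seen. *C1qtnf12*, a secreted protein with a C1q and TNF-like domain, was at 280, 298 and 351 CPM in *WT Phf6,RE9a* and at 827, 902 and 911 CPM in *VC Phf6,RE9a* cells (log2FC 1.51, SE 0.11, adjusted p = 8.6e-05, edgeR). Its level was higher in every *VC Phf6,RE9a* library. *C1qtnf4* rose from 5.24 ± 0.295 to 13.1 ± 1.94 CPM (SD, n = 3; log2FC 1.32, SE 0.19, adjusted p = 0.00118). *C1qtnf6* fell from 3.77, 26.5 and 3.09 CPM to 0.236, 0.816 and 0.654 CPM (log2FC -4.27, SE 0.98, adjusted p = 0.00998), and *WT Phf6,RE9a* replicate 2 was far above the other two.

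The RELT homologs *Rell1* and *Rell2* fell, with log2FC values of -1.52 and -2.59, while *Relt*, a receptor of the family under another symbol, did not pass the threshold (-0.31, SE 0.14, adjusted p = 0.115). *Edaradd*, the adaptor of the ectodysplasin receptor *Edar*, went from 1.56 ± 0.406 to 0.234 ± 0.174 CPM (SD, n = 3; adjusted p = 0.00613), while *Edar* had 0 counts in every library. *Traf3ip2*, the adaptor of IL-17 receptors, fell from 7.63 ± 1.27 to 1.85 ± 0.495 CPM (adjusted p = 0.00115), and *Siva1*, a binding partner of CD27, rose with a log2FC of 0.52 (adjusted p = 0.00729). *Tnfsfm13*, the read-through gene over *Tnfsf12* and *Tnfsf13*, is described with them. No explanation of these values was tested.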
